A study of Mus musculus with 21 samples.

Results

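The most CpG-dense stretches of the mouse autosomes were examined in DNA that remained wrapped in nucleosomes in sperm. The autosomes were cut into fixed 500 bp bins counted from position 1, and a bin was taken as dense when 50 or more of its CpGs were listed in the deposited methylation table with a total of up to 19 reads. This gave 5832 dense bins of 3818124 bins with at least 1 listed CpG, or 0.153%. They were set against the 13087 bins with 30 to 49 listed CpGs. Both sets were chosen by the number of CpGs that had reads, so the read counts took part in the choice, and all values of these sets are descriptions.

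The series holds 21 samples of C57BL/6 mouse sperm and round spermatids, of which 1 was analysed here, the bisulfite library of nucleosome-associated sperm DNA. Its sperm were C57BL/6J cells taken by swim-up, a selection for motility, and mononucleosomes were released with micrococcal nuclease, which digests the DNA between nucleosomes. The labels give no age, genotype or treatment for these sperm and do not say how many animals were pooled. The other libraries, sonicated genomic DNA of sperm among them, were not used here. With 1 library no test between groups was possible, no p-value is given, and spreads are those over bins or over the 19 autosomes.

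CpG-rich DNA in mammals lies mostly in CpG islands, which cover many gene start sites and usually stay unmethylated while most other CpGs carry methylation. In sperm most histones are exchanged for protamines, and the nucleosomes that remain are known to be found preferentially at CpG islands. In bisulfite sequencing an unmethylated cytosine is read as thymine and a methylated one as cytosine, so each read reports both the presence of a DNA fragment and the methylation of its CpGs.

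The genes at the bins were found from the spacing of CpGs. RefSeq promoter windows (250 bases before to 50 after a start site) with 20 or more CGs were laid on the listed positions of all autosomes. Of 8491 autosomal windows of this kind, 6487 were placed with at least 90% of their CGs listed, and every one of these had a single place, on the chromosome of its gene. A matched start site fell in 1988 dense bins (34.1%, 2162 genes) and in 2775 bins with 30 to 49 CpGs (21.2%, 3008 genes). Bins without a match may still hold a start site, since windows with fewer CGs or with more unlisted CGs were not placed.

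The 250 bases before the start site are shown for 4 of these genes, chosen for the number of listed CpGs or of reads in their bins. Foxk2, a forkhead transcription factor, and Pds5a, a cohesin-associated protein, start in 2 of the 5 dense bins with the most listed CpGs. Mmp24, a membrane-type matrix metalloproteinase, starts in one of the best covered dense bins and Sympk, a scaffold protein of mRNA 3′ end processing, in the least covered one. The sequences are RefSeq's, from its GRCm38.p6 table, written 5′ to 3′ on the strand of the gene, with each CG in capitals. Positions are those of the deposited table, on mm9.
Foxk2, chr11:121121051-121121300, plus strand: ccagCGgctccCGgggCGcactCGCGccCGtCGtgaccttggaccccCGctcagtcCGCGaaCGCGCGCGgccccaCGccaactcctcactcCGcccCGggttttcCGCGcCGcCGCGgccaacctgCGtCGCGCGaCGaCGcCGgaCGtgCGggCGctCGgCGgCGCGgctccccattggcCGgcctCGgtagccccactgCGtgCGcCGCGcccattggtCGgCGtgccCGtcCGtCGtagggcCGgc
Pds5a, chr5:66089476-66089725, minus strand: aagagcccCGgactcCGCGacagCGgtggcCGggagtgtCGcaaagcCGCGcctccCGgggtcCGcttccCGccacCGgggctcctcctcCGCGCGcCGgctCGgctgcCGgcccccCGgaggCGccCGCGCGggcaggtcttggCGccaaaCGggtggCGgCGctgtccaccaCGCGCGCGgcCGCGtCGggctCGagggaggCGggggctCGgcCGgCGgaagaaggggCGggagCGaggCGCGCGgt
Mmp24, chr2:155600828-155601077, plus strand: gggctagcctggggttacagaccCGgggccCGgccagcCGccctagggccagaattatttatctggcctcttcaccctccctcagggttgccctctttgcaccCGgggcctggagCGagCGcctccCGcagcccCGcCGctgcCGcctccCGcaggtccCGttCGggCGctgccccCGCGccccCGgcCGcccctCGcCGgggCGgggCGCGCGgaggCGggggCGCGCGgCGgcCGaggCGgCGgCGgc
Sympk, chr7:19609476-19609725, plus strand: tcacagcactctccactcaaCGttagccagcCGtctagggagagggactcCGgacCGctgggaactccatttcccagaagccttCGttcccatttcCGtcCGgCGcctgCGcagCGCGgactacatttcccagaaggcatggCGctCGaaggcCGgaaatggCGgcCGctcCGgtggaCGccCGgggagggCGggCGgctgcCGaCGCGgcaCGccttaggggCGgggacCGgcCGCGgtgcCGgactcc

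The Foxk2 stretch held 48 CGs in 250 bases and 78.4% G+C, with 7.08 ± 3.32 reads per listed CpG (SD over 49 listed CpGs, 1 of which crosses the start site). Of its 347 CpG reads, 1 was methylated. The Pds5a stretch held 44 CGs, with 6.45 ± 2.82 reads (SD, 44 CpGs) and a level of 2.46%. In both promoters several CGs follow each other directly, as runs of CG. The Mmp24 stretch held 33 CGs with 10.97 ± 4.22 reads (SD, 33 CpGs), a range of 4 to 18, and a level of 3.87%. The Sympk stretch held 30 CGs with 2.13 ± 1.55 reads (SD, 30 CpGs), a range of 1 to 5, and none of its 64 CpG reads was methylated. The dense CGs and the wide difference in reads come with the choice of these genes, and the CpG ranges of Mmp24 and Sympk overlap at 4 and 5 reads.

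Dense bins were nearly free of methylation. Their 352258 listed CpGs held 1957867 CpG reads, of which 39479 were methylated, a pooled level of 2.02% (95% Wilson interval 1.997 to 2.036). The bins with 30 to 49 CpGs had 3.53% (3.51 to 3.56), and all autosomal CpGs of up to 19 reads together had 73.9%. These intervals cover counting error only and are too narrow, since 1 read is counted again at every CpG along it. The level of dense bins ranged from 1.80% on chromosome 18 to 2.34% on chromosome 7, and it was below that of the bins with 30 to 49 CpGs on all 19 autosomes. The difference, dense bins minus the others, ran from -2.79 to -0.735 percentage points.

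The medians of the bins lay closer together than the upper tails. The median level was 1.65% in dense bins (quartiles 1.02% and 2.49%) and 1.83% in the others (0.901% and 3.33%). The 95th percentile was 4.70% in dense bins against 11.5%. A level of up to 5% was found in 95.8% of the dense bins and in 86.7% of the bins with 30 to 49 CpGs. No methylated read at all was found in 120 dense bins (2.06%) and in 1196 of the others (9.14%), which held fewer reads, with a median of 182 per bin against 321.

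Single CpGs with 10 or more reads mostly had low levels as well. In dense bins 47632 CpGs had 10 or more reads, and 98.8% of them had a level under 20%. A single one had a level over 80%. The only dense bin over 80% had at most 9 reads on any CpG, so none of its CpGs is counted here. Among the 47873 such CpGs in bins with 30 to 49, 96.7% were under 20% and 38 were over 80%. Bins of that set over 80% had a mean of 3.52 reads per listed CpG. The part of the limit of 10 reads in these counts was not tested. CpGs in dense bins followed each other closely, with a median gap of 6 bp between listed neighbours against 8 bp. Of the gaps 14.9% were 2 bp, the spacing of CGCG, against 11.1%. Smaller gaps come with the rule, which chose the sets by the number of listed CpGs in 500 bp.

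Reads per listed CpG rose with the number of CpGs in the bin. Dense bins had a mean of 5.56 reads per listed CpG and bins with 30 to 49 had 5.06, a ratio of 1.10, with 1.04 to 1.13 on the 19 autosomes. The ratio was above 1 on each of them. Single bins overlapped broadly. The mean over dense bins was 5.53 ± 1.501 (SD over bins) and that over the others 5.05 ± 1.59, and the central 90% of dense bins lay between 3.28 and 8.19. Dense bins held 2.33% of the listed CpGs and 3.96% of the reads on them.

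By exact count, the mean was 4.91 reads at 30 listed CpGs (1031 bins), 5.04 at 40 (669 bins), 5.28 at 50 (407 bins), 5.55 at 60 (239 bins), 5.66 at 70 (123 bins) and 6.28 at 80 (32 bins). The SD over bins at a given count was 1.54 at 50 and 1.44 at 60, so a step of 10 CpGs moved the mean by less than the spread of bins. After that it was 5.91 at 81 (33 bins), and up to 90 the means lay between 5.68 at 86 (11 bins) and 7.09 at 90 (7 bins). Above 90 CpGs each count had at most 4 bins and the means ran from 4.97 at 93 to 10.2 at 95. In classes of counts the mean rose from 5.34 at 50 to 54 CpGs (1813 bins) to 5.40 at 55 to 59, 5.58 at 60 to 64 and 5.70 at 65 to 69. It was 5.69 at 70 to 74, 6.02 at 75 to 79 and 6.17 at 80 to 100 (211 bins). The 70 to 74 class lay 0.01 below the class before it. Across dense bins, which are not independent replicates and share 1 library, count and reads had a Spearman correlation of 0.140. At the edge of the rule the mean was 5.28 at 48 or 49 CpGs (833 bins) and 5.27 at 50 or 51 (778 bins).

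**Figure D1:**
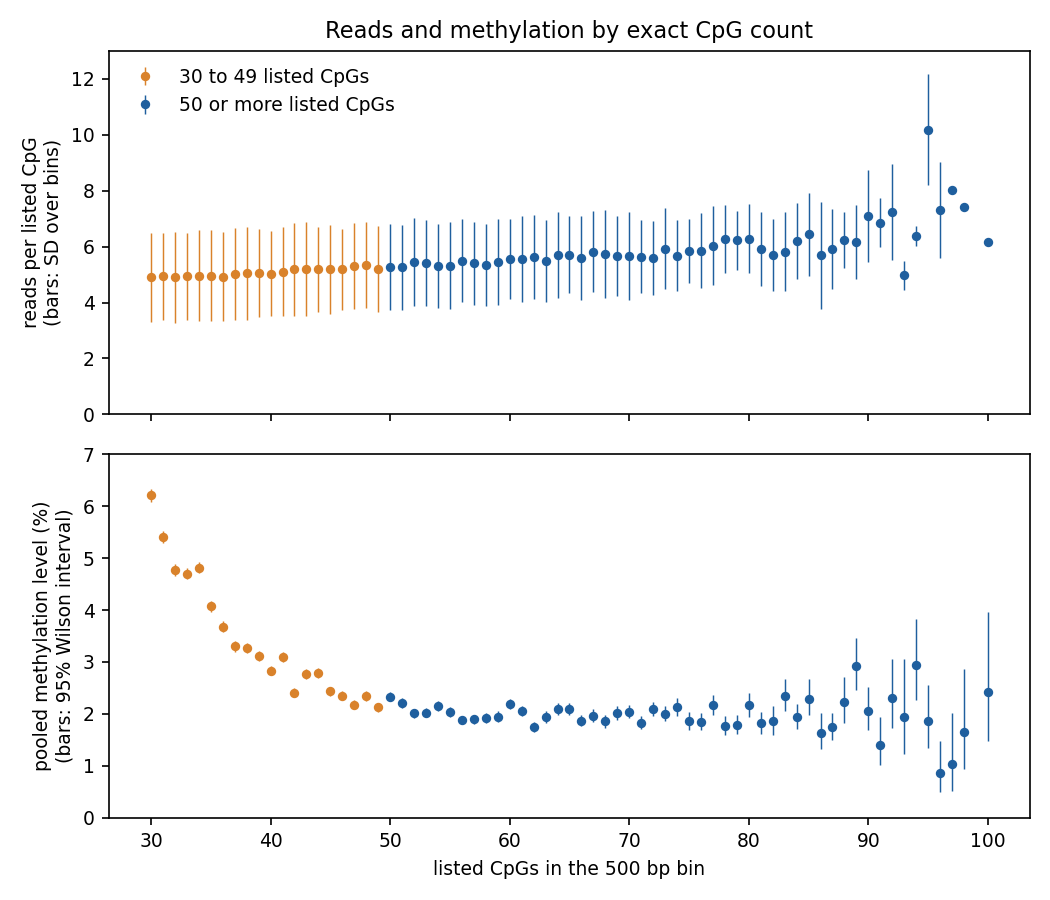
Reads per listed CpG (top, points are means over CpGs, bars the SD over bins, no bar where there is 1 bin) and pooled methylation level (bottom, bars are 95% Wilson intervals) against the exact number of listed CpGs in a 500 bp bin. Reads climb from 4.91 at 30 CpGs to 6.28 at 80 and vary between 5.68 and 7.09 from 81 to 90. The level falls from 6.21% at 30 to 2.33% at 50.

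The level behaved differently from the reads. It fell from 5.20% at 30 to 34 listed CpGs to 2.29% at 45 to 49 and 2.15% at 50 to 54. Among the dense classes above that it lay between 1.89% and 2.02%, with no further fall. How complete the bisulfite conversion was is not given. How much of such low levels, here and in the contrasts near 2% below, is methylation was not tested.

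A CpG is listed when it has a read, so the listed count and the reads of a bin are not independent. The number of CGs in a matched promoter sequence does not depend on reads. With windows placed at 80% of their CGs listed and unlisted CGs counted as 0 reads, the mean was 4.27 ± 1.71 reads per CG at 20 to 24 CGs in 300 bases (SD over 2224 windows). It was 4.39 ± 1.66 at 25 to 29 (1912 windows), 4.63 ± 1.72 at 30 to 34 (1370 windows), 4.80 ± 1.79 at 35 to 39 (896 windows) and 5.30 ± 1.78 at 40 to 60 (1141 windows). Reads thus also rose with the CGs of the sequence, and the difference between the first class and the last was smaller than the SD of windows in either. The placement itself leaves out poorly covered windows, and its part in these means was not tested.

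The bins around dense bins became more methylated within 2 kb. Neighbours were counted as places, per dense bin and side, so a bin lying between dense bins is counted for each. Some of these neighbours are themselves dense bins chosen by the rule, and of 11657 places directly beside a dense bin 6315 had under 30 listed CpGs. All places directly beside a dense bin together had a pooled level of 3.14% and 5.02 reads per listed CpG. At 501 to 1000 bp the level was 12.2% with 4.37 reads, at 1001 to 1500 bp 31.6% with 3.92 reads, and at 1501 to 2000 bp 49.97% with 3.63 reads. At 4501 to 5000 bp it was 69.5% with 3.34 reads. Taking only the neighbouring bins with under 30 listed CpGs, the level beside a dense bin was 5.98% and that at 4501 to 5000 bp 74.7%. Bins with 30 to 49 CpGs had more methylated near neighbours (5.26% beside them and 14.9% at 501 to 1000 bp) and less methylated far ones, with 61.1% at 4501 to 5000 bp.

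**Figure D2:**
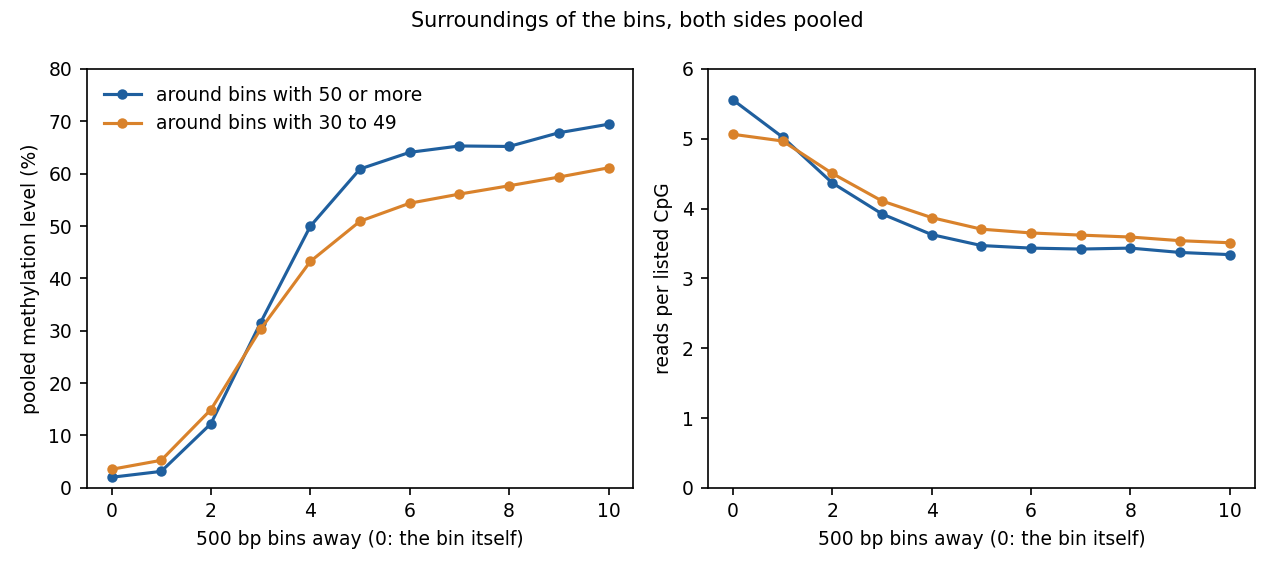
Pooled methylation level (left) and reads per listed CpG (right) in 500 bp bins at 0 to 10 bins from dense bins and from bins with 30 to 49 listed CpGs, both sides pooled. Around dense bins the level climbs from 2.02% to 69.5% while reads fall from 5.56 to 3.34.

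Most dense bins stood alone. Of the 5832, 3700 (63.4%) had no dense bin directly beside them, 1676 lay in 838 pairs, 378 in 126 runs of 3, 56 in 14 runs of 4, 15 in 3 runs of 5 and 7 in a single run. Reads per listed CpG were 5.57 in single bins, 5.57 in pairs and 5.42 in runs of 3. Over the 1150 pairs of directly adjacent dense bins the mean reads had a Pearson correlation of 0.232, a description of neighbours in 1 library, with a median difference of 1.23 reads.

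The longest run had 7 dense bins on chromosome 11 from 82743501 to 82747000, holding 433 listed CpGs, a mean of 6.48 reads on each and a level of 6.49%. Its bins ran from 4.29% to 11.7%, above the median of dense bins throughout. The nearest matched start site was that of Nle1, 21604 bp away. The 3 runs of 5 bins together had 5.02 reads per listed CpG and a level of 1.61%, and the first 2 of them in chromosome order are described. The run on chromosome 2 from 146047001 to 146049500 had 306 CpGs, 5.12 reads and a level of 1.15%, and the run on chromosome 5 from 43624001 to 43626500 had 297 CpGs, 5.18 reads and 1.04%. None of these 3 named runs held a matched start site.

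The coverage of CpGs in a bin was correlated in a pattern that depended on their distance. Correlations are Pearson's over all pairs of listed CpGs of the same bin. Each CpG enters many pairs, and close pairs share reads, so they are given as descriptions. In dense bins the correlation fell from 0.814 at 1 to 20 bp (876073 pairs) to 0.398 at 21 to 40 bp and 0.105 at 41 to 60 bp. It then rose again to 0.129 at 61 to 80 bp and 0.191 at 81 to 100 bp. From there it fell to 0.0522 at 141 to 160 bp and -0.0227 at 201 to 220 bp, and came back to 0.0379 at 261 to 280 bp.

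Bins with 30 to 49 CpGs had the same shape at a higher level. Their correlation was 0.185 at 41 to 60 bp, 0.225 at 81 to 100 bp, 0.0558 at 201 to 220 bp and 0.0792 at 261 to 280 bp. Dense bins were lower in 24 of the 25 distance classes. The rise from 41 to 60 bp to 81 to 100 bp was 0.0859 in dense bins, with 0.0474 to 0.121 on the autosomes and above 0 on all 19. In bins with 30 to 49 it was 0.0399 (0.00147 to 0.0755). It was larger in the dense bins on 18 of 19 autosomes. With CpGs above 19 reads included, the rise in dense bins was 0.00562. Bins differed less among themselves in the dense set, where differences between bins made up 17.7% of the variance of reads over CpGs, against 24.7%. The part of this in the lower correlations was not tested.

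**Figure D3:**
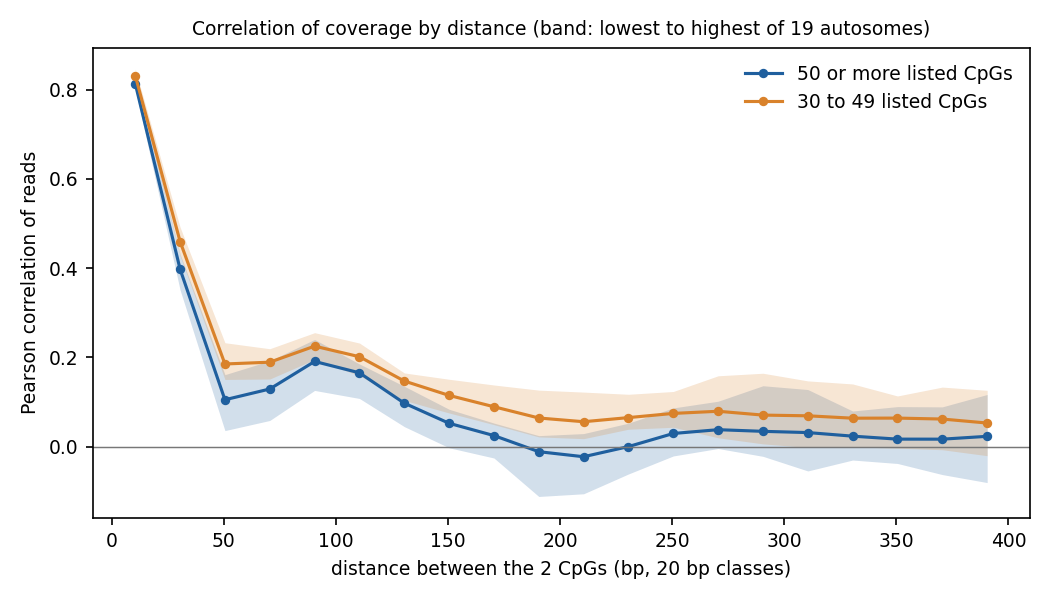
Pearson correlation of reads between CpGs of the same bin against their distance in 20 bp classes up to 400 bp, for dense bins and bins with 30 to 49 listed CpGs. Lines are the pooled values and bands run from the lowest to the highest of 19 autosomes. Both curves have a dip at 41 to 60 bp and a second rise at 81 to 100 bp, and the dense bins reach -0.0227 at 201 to 220 bp.

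Dense bins with a matched start site were close to the others. They had 5.48 ± 1.44 reads per listed CpG (pooled mean, SD over 1988 bins) and a level of 1.90%, and the 3844 dense bins without a match had 5.60 ± 1.53 reads and 2.08%. In the bins with 30 to 49 CpGs the levels were 2.24% with and 3.89% without a match.

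Reads per listed CpG rose gradually across the start site, with a level near 2% on both sides. In dense bins they were 5.34 in the last 20 bp class upstream, 5.48 at 0 to 19 bp and 5.67 at 20 to 39 bp. The profile was taken over 1678 dense bins with a single matched start site, and the windows compared were chosen after seeing it. CpGs from 200 to 1 bp upstream had a mean of 5.05 reads and those from 100 to 299 bp downstream had 5.81, a ratio of 1.15. The ratio was 1.05 to 1.27 on the 18 autosomes with matches and above 1 on each. The levels were 2.03% upstream and 1.83% downstream, and listed CpGs were about equally dense, at 12.0 and 11.7 per 100 bp. The highest 20 bp class was 180 to 199 bp downstream, at 6.00 reads. Start sites in bins with 30 to 49 CpGs had a ratio of 1.15 as well, with 4.72 and 5.43 reads. Their listed CpGs were less equally dense, at 9.19 and 7.97 per 100 bp. The placement asked for listed CGs in the upstream window and not in the downstream one, and its part in the ratio was not tested. With windows placed at 80% of their CGs listed, the ratio in dense bins was 1.18.

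**Figure D4:**
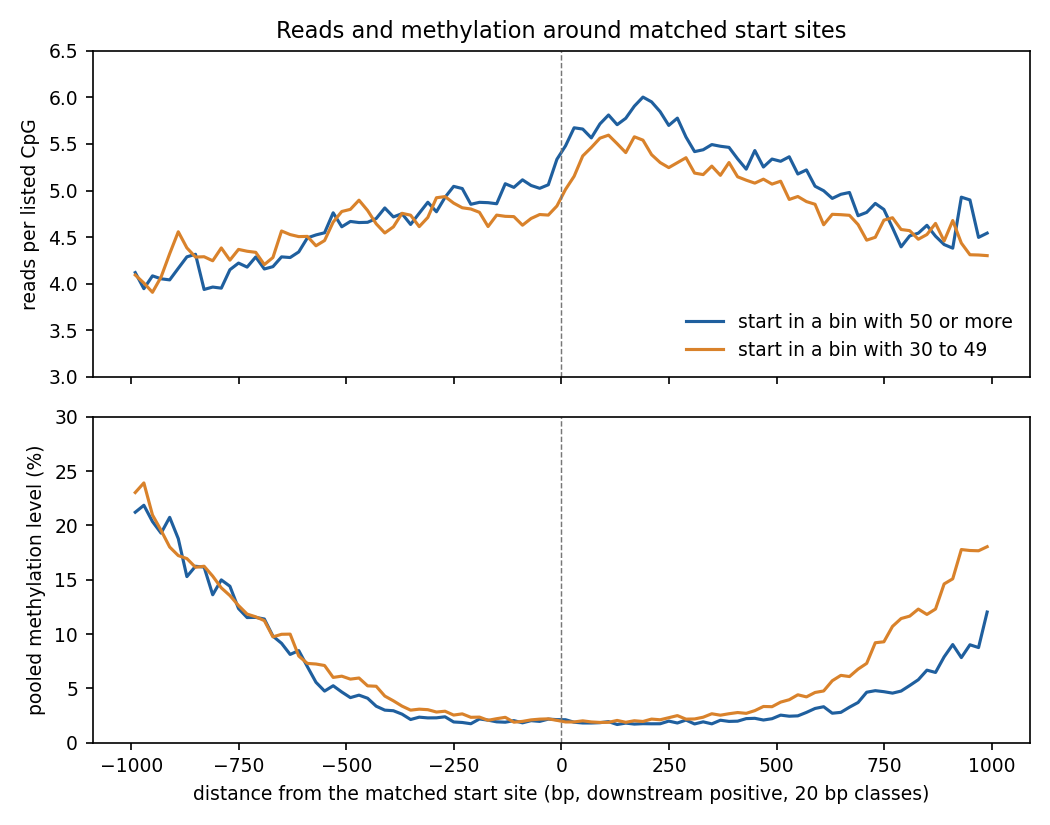
Reads per listed CpG (top, axis from 3 to 6.5) and pooled methylation level (bottom) in 20 bp classes around matched start sites, for 1678 start sites in dense bins and 2375 in bins with 30 to 49 listed CpGs. Reads rise across the start site, from 5.05 at 200 to 1 bp upstream to 5.81 at 100 to 299 bp downstream in dense bins. The level is near 2% close to the start site and climbs to 21.2% in the 20 bp class farthest upstream.

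Promoters in dense bins differed in sequence from other promoters in ways that come in part with CG counting. Matched windows that start in a dense bin had 71.4% ± 6.39 G+C (SD, 2346 windows). Those that start in a bin with 30 to 49 had 65.8% ± 5.60 (3232 windows). All 6487 matched windows, which include both sets, had 67.5% ± 6.59. All 32851 windows of the table had 53.8% ± 11.3. These held a mean of 12.4 CGs against 30.4 in all matched windows, since only windows rich in CGs were placed. Contrasts with all windows of the table thus come in part with the matching rule. The GC box GGGCGG, a binding motif of Sp1 family factors that contains a CG, was looked for on either strand. It was found in 87.0% of windows that start in a dense bin and 76.7% of those in bins with 30 to 49. The share was 79.5% in all matched windows and 35.7% in all windows of the table. In the same order, TATAAA, the core of the TATA box, was found in 2.64%, 3.99%, 3.47% and 13.6%. CCAAT was found in 26.3%, 34.7%, 31.7% and 37.4%. Such matches are letters only. Across 1988 dense bins with a match, G+C of the window and reads per listed CpG had a Spearman correlation of 0.0196, given as a description.

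Genes were then grouped by lists made from symbols. Of 25748 autosomal genes in the table, 5881 were matched, and 2162 of those matched (36.8%) started in a dense bin. The developmental regulators are a list of symbols such as Hox, Fox, Sox, Nkx and Wnt. It also takes in a few relatives such as kinases and antisense RNAs. Of its 177 genes in the table, 79 were matched, and 31 of those matched (39.2%) started in a dense bin. The housekeeping list takes symbols of ribosomal, proteasomal, chaperonin, translation, RNA polymerase II and respiratory chain genes and a few relatives. Of its 225 genes in the table, 110 were matched, and 25 of those matched (22.7%) started in a dense bin. These percentages depend on which genes could be matched. Set against the counts in the table instead, both lists lie above all genes, so for housekeeping the order turns. Unmatched genes may also start in a dense bin. Of 14 germline genes in the table, 8 were matched, none in a dense bin and 6 in bins with 30 to 49 CpGs. These counts are descriptions of lists chosen by symbol, and no list is called particular from them.

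The median bin of the developmental regulators had 5.33 reads per listed CpG and a level of 2.005%, that of the housekeeping genes 5.22 reads and 1.26%, and that of all matched genes 5.34 reads and 1.61%. Within the developmental list Wnt11, which encodes a secreted signal of the Wnt family, had 9.23 ± 4.27 reads (SD over 52 CpGs) and a level of 1.04%. The bin of the homeobox gene Nkx1-1 had 8.58 ± 3.98 reads over 64 CpGs and 2.19%. At the other end the forkhead gene Foxj3 had 2.65 ± 1.58 reads over 68 CpGs and 1.11%, and Foxo1, a forkhead factor of insulin signalling, had 2.82 ± 2.004 reads over 61 CpGs with no methylated read among 172. The highest level of the list was 6.59%, at the homeobox gene Irx2, with 12 methylated of 182 reads. Housekeeping genes ran from 2.94 ± 1.66 reads at Rps6ka5, a kinase taken in by its symbol, to 8.32 ± 5.21 at the translation initiation gene Eif1b. Both lists thus span low and high coverage at low levels of methylation.

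Of the chromatin list, 5 of 10 matched genes started in a dense bin, beside 36.8% of all matched genes, a difference that 10 genes cannot resolve. Dnmt3a and Dnmt3b, the de novo DNA methyltransferases, were among them. Dnmt3a had start sites in 2 dense bins, with 86 and 64 listed CpGs, 5.59 and 4.97 reads and levels of 3.74% and 2.52%. Dnmt3b had 77 CpGs, 4.16 reads and 2.19%. Kdm2b, which encodes a histone demethylase that binds unmethylated CpGs, had 68 CpGs, 3.57 reads and 1.65%. Suz12, a subunit of Polycomb repressive complex 2, had 60 CpGs, 3.73 reads and 2.68%. H3f3b, which encodes histone H3.3, had 58 CpGs, 5.64 reads and 0.917%.

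The 5 bins with the most listed CpGs all had levels under 2.5%. The highest number was 100 CpGs, on chromosome 15 from 100701001 to 100701500 at a start site of Scn8a, a voltage-gated sodium channel, where the mean was 6.18 ± 5.45 reads (here and below the SD is over the CpGs of the bin) and a level of 2.43% (Wilson interval 1.48 to 3.97). The bin on chromosome 4 from 57156001 to 57156500, at a start site of Epb41l4b, a band 4.1 family protein, had 98 CpGs, 7.43 ± 3.65 reads and 1.65%. That of Pds5a on chromosome 5, 66089001 to 66089500, had 97 CpGs, 8.02 ± 4.61 reads and 1.03%. Without a matched start site, 96 CpGs lay on chromosome 9 between 95460001 and 95460500, at 8.52 ± 3.39 reads and 0.978%. The bin of Foxk2 on chromosome 11, 121121001 to 121121500, also had 96, with 6.10 ± 3.89 reads and 0.683%. All 5 means lay above the 5.56 of dense bins as a whole. A CpG is listed when it has a read, so the choice of these bins is not independent of their reads.

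Among dense bins of up to 20% methylation the reads per listed CpG spanned 1.57 to 12.3. The highest was 12.3 ± 3.77 on chromosome 17 from 37334001 to 37334500 (50 CpGs, level 2.11%), followed on the same chromosome by 12.2 ± 3.33 from 34809001 to 34809500 (54 CpGs, 10.2%). The bin of Mmp24 on chromosome 2, 155601001 to 155601500, had 11.6 ± 4.14 reads over 95 CpGs and 22 methylated of 1100 reads. On chromosome 3 the bin at 68673501 to 68674000 showed 11.4 ± 3.74 reads (58 CpGs, 1.51%), and the bin of Fscn1, the actin-bundling protein fascin, on chromosome 5 from 143722001 to 143722500 had 11.3 ± 3.36 (55 CpGs, 2.74%). High coverage thus occurred both at 50 and at 95 listed CpGs. In 3 of these bins further CpGs lay above 19 reads, 4, 5 and 7 of them, and are left out of the means.

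The lowest means were found at the bin of Sympk on chromosome 7, 19609501 to 19610000, with 1.57 ± 1.13 reads over 61 CpGs and 1 methylated of 96 reads. The bin at 90795001 to 90795500 on chromosome 5 showed 1.58 ± 0.854 reads (55 CpGs, 0 methylated of 87 reads, Wilson interval up to 4.23%). Bins on chromosome 6 from 100237001 to 100237500 and on chromosome 2 from 167015001 to 167015500 had 1.71 ± 0.832 and 1.72 ± 0.730 reads, and levels of 4.60% and 1.16%. The bin of the magnesium transporter gene Cnnm4 on chromosome 1, 36528001 to 36528500, had 1.79 ± 0.840 reads over 53 CpGs and 2.11%. Across all dense bins level and reads had a Spearman correlation of 0.00394, as a description.

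Exceptions over 20% methylated were rare. They numbered 9 of 5832 dense bins (0.154%), against 437 of 13087 bins with 30 to 49 CpGs (3.34%). Over 80% there was 1 dense bin (0.0171%) against 75 (0.573%). The share over 20% was lower in nearly every fuller class, from 5.87% at 30 to 34 CpGs to 0.814% at 45 to 49 and 0.441% at 50 to 54. None of 1372 bins at 55 to 59 and 1 of 1027 at 60 to 64 exceeded 20%, and none of the fuller ones. At the edge of the threshold the nearest dense bins had levels of 19.3% (59 CpGs) and 20.3% (51 CpGs), and 38 dense bins lay between 10% and 20%.

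Of the 9 exceptions, 8 were partly methylated, between 20.3% and 39.3%, and 1 was highly methylated along its length. The last of these lay on chromosome 7 from 52263001 to 52263500, with a level of 88.8% (Wilson interval 83.4 to 92.5, 166 of 187 reads over 51 CpGs). Of its CpGs 35 were methylated in every read and 1 in none. Both neighbouring bins had 93.0%, and at 2001 to 5000 bp away the level was 94.9%. Its mean was 3.67 ± 2.10 reads per listed CpG, with a lowest of 1, a median of 3 and a highest of 9. The nearest matched start site, 8119 bp away, was that of Scaf1, a gene for an SR-related protein. The 75 bins with 30 to 49 CpGs and a level over 80% had 3.52 ± 0.996 reads per listed CpG (SD over bins), against 5.09 ± 1.59 in the 11342 bins of up to 5%, so the most methylated bins of that set also had low means. None of the 75 held a matched start site.

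The second highest level was 39.3% (34.9 to 43.9, 177 of 450 reads over 50 CpGs), on chromosome 13 from 120277001 to 120277500. It held matched start sites of Tmem267, a transmembrane protein gene, and of 3110070M22Rik. Its mean was 9.0 ± 4.84 reads, and 14 further CpGs above 19 reads had a level of 48.1%. The bin on its left had 9.0% and the bin on its right 100% methylation, the latter over 10 CpGs. This bin was the only exception with CpGs above 19 reads.

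The other 7 partly methylated bins all had a lower level in the last 250 bp than in the first. First and last follow chromosome coordinates, not the direction of a gene. The share of all dense bins with a lower last part was not taken, so this is not called a trait of the exceptions. On chromosome 8 from 49314001 to 49314500 (27.4%, 23.2 to 32.1, 50 CpGs, 7.66 ± 4.36 reads) the first 250 bp had 34.5% and the last 250 bp 7.07%. On chromosome 12 from 110271501 to 110272000 (25.4%, 19.6 to 32.3, 54 CpGs, 3.28 ± 1.27 reads) they had 36.05% and 15.4%. The latter bin had another dense bin on its right, with 60 CpGs and 15.5%, and the start site of Begain lay 19308 bp away. On chromosome 19 from 5307001 to 5307500 (24.3%, 20.2 to 28.9, 61 CpGs, 6.07 ± 2.65 reads) the level was 40.9% in the first and 7.61% in the last 250 bp. This bin held the start site of the predicted gene Gm42064, whose promoter window overlaps the gene Gal3st3 in RefSeq.

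On chromosome 7 from 133435501 to 133436000 (24.4%, 19.8 to 29.7, 53 CpGs, 5.42 ± 2.13 reads) the first and last 250 bp had 28.7% and 19.7%. On the same chromosome from 4983001 to 4983500 (23.6%, 18.8 to 29.1, 52 CpGs, 4.98 ± 2.61 reads) they had 30.7% and 15.1%, and the start site of the zinc finger gene Zfp784 lay 6548 bp away. On chromosome 15 from 78240501 to 78241000 (22.5%, 19.02 to 26.4, 54 CpGs, 9.06 ± 3.13 reads) they had 32.6% and 14.4%. On chromosome 11 from 96194001 to 96194500 (20.3%, 15.4 to 26.3, 51 CpGs, 4.06 ± 1.52 reads) they had 33.7% and 8.26%. The lower Wilson bounds of 5 of the 9 bins lay under 20%, so their side of the threshold is not settled at this depth.

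**Figure D5:**
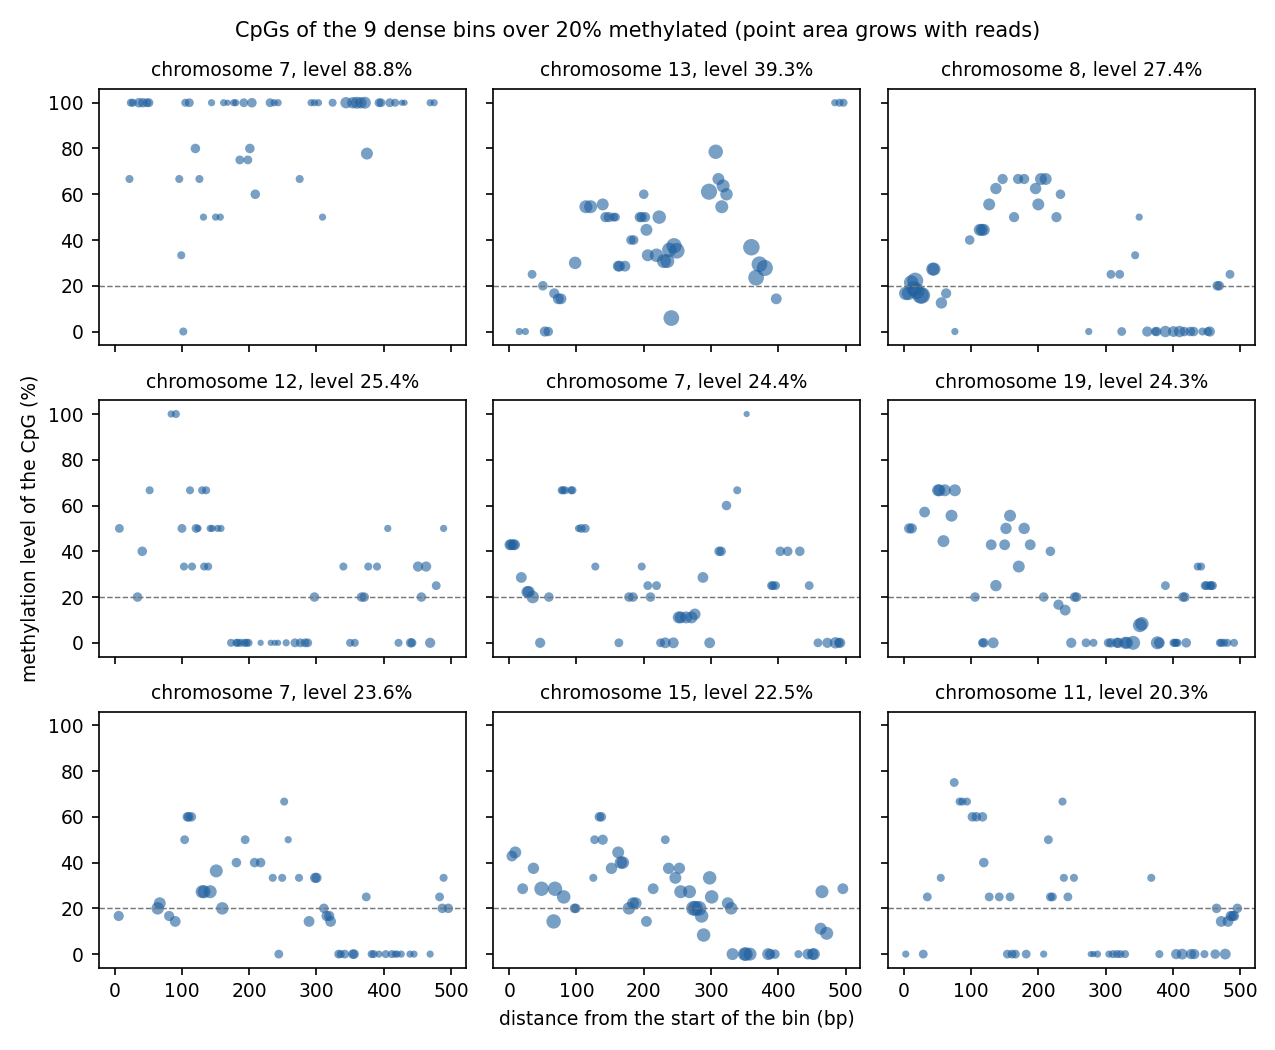
Methylation level of each listed CpG against its distance from the start of the bin, for the 9 dense bins over 20% methylated, ordered by level; point area grows with the CpG's reads and the dashed line marks 20%. The first panel (88.8%) holds 35 CpGs at 100%. In 7 of the 9 bins the level is lower in the last 250 bp than in the first, by chromosome coordinate.

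In 4 of the 9 exceptions both neighbouring bins were more methylated than the bin itself. Dense bins as a whole also had more methylated neighbours, with a pooled level of 3.14% beside them against 2.02% inside. The share of all dense bins with both neighbours more methylated was not taken. At 2001 to 5000 bp away the level was 24.3% around the bin on chromosome 15, 51.2% around the bin at 4983001 on chromosome 7 and between 76.3% and 94.9% around the others. The 9 bins had between 50 and 61 listed CpGs, and their means ran from 3.28 to 9.06 reads per listed CpG. Over all 9 the pooled mean was 5.90 reads, against 5.56 in dense bins as a whole.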

How the data were processed

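One bisulfite library of nucleosome-associated sperm DNA was analysed. The deposited table gives, per the file headers, a count of all reads and a count of methylated reads at each CpG, with no normalization by the authors. Per the submitters' processing notes, Bowtie and mm9 were used; how reads were trimmed, converted for alignment, de-duplicated or placed, and how complete the conversion was, is not given in the sources used here. The table lists 15544856 CpGs with 60995624 CpG reads and a median depth of 3. CpGs without reads are not listed. Without molecular identifiers PCR copies cannot be told from separate molecules, so intervals cover counting error only.

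Bins used autosomal CpGs of 1 to 19 reads. The level is methylated over all reads. Reads per listed CpG exclude unlisted CpGs. Matched promoter windows needed 90% of their CGs listed and 90% of the listed CpGs among them; on 7 of 18 chromosomes the first 3 windows had the same position in RefSeq's GRCm38.p6 and the table, so positions are taken to count from 1. No promoter window of chromosome 18 was used, and no coordinates were converted. No mm9 sequence was used, so bins carry no exon annotation.

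Regions named were all dense bins over 20%, the 5 with most CpGs, the 5 highest and 5 lowest in reads, and the 3 longest runs, none on chromosome 18. Genes named are those matched to these bins or of the lists. Members, lists and rules were chosen with earlier results of these data known. Python 3.11.15, numpy 2.4.6, pandas 2.3.3, scipy 1.17.1 and matplotlib 3.10.9 were used, and the calculations were tested on simulated data. Alternatives changed bin placement and size, read limits, thresholds, correlation measure and matching.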

Additional observations from a re-analysis of the deposited data

Results flagged for a closer look

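CpGs above 19 reads are left out of the bins' values and still gave a signal. Inside dense bins there were 3139 of them, in 577 bins (9.89%), and their level was 1.96%, close to the 2.02% of the other CpGs there. A further 151 bins reached 50 CpGs only when such CpGs were counted. Their level was 6.76%, and none was over 20%. Over all autosomes, CpGs above 19 reads had 51.1%.

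The X chromosome also lies outside the rule. It held 68 dense bins, with a level of 2.27% (Wilson interval 2.03 to 2.54), 3.37 reads per listed CpG and none over 20%. The number of X copies differs between sperm, so these reads were not compared with those on autosomes.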

How the results depend on the processing

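No paired analysis was possible because 1 library was analysed. The alternatives gave 38 values: 16 lay inside the interval of the reported value (for numbers of bins within 1.5 times, for the correlation and the start site ratio within 1 SD over autosomes), 22 outside it and 0 reversed. For levels and reads these are narrow counting intervals. The alternatives for neighbouring bins and for the start site ratio were chosen after seeing the data.

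The pooled level of 2.02% became 2.46% with no limit on total reads, which adds 151 bins with a level of 6.76%, 2.09% in bins of 1000 bp and 2.04% as the mean of the bins' levels. Bins of 1000 bp with 100 or more CpGs numbered 1443. Reads per listed CpG of dense bins, and their ratio to bins with 30 to 49, were 5.58 and 1.10 with bins shifted by 250 bp, 6.18 and 1.16 with no limit, 5.32 and 1.07 with totals up to 15, 6.18 and 1.10 with CpGs of 2 or more reads, 4.99 and 1.07 as the mean of the bins' medians, and 5.40 and 1.11 with the truncated distribution, which allows for unlisted CpGs. In bins of up to 20% methylation the ratio was 1.09. The correlation's rise was 0.0618 by Spearman and 0.00562 with no limit; the cause was not tested. Dense bins over 10% numbered 47 and those over 50% numbered 1. Beside dense bins, neighbours with under 30 CpGs had 5.98%. At a depth of 5.56 reads, levels of single CpGs are coarse, and 13.5% of the CpGs in dense bins reached 10 reads.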

Other observations

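The positions of CpGs within a bin were also sorted by their remainder on division by 3, the period of codons, and the largest of the 3 shares was taken. Its median was 40.3% in dense bins of up to 5% methylation and 41.1% in those between 5% and 20%. In the bin on chromosome 7 with a level of 88.8% it was 78.4%, a share reached by 2 of the 5832 dense bins, itself included. In the exception on chromosome 12 it was 62.96%. Shares over 60% were found in 0.483% of the dense bins of up to 5%. Among bins with 30 to 49 CpGs they were found in 0.820% of 11342 bins of up to 5%, in 2.29% of 1308 bins between 5% and 20%, in 5.19% of 308 between 20% and 50%, in 7.41% of 54 between 50% and 80%, and in 13.3% of 75 over 80%. The more methylated bins held fewer CpGs, with a mean of 33.3 over 80% against 38.3 up to 5%, and the part of this in the shares was not tested. The measure was chosen after seeing the positions in the exceptions, and whether these bins lie in coding sequence was not tested.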
